A study of Homo sapiens with 12 samples.

Results

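RPL22 and RPL22L1 are a pair of paralogs that encode 2 versions of the same protein of the large ribosomal subunit. They were selected by gene name from the 58735 genes of the count and FPKM tables, and both of these 2 genes were among the 17729 that passed the filter on low counts. RPL22L1 entered the pair because it was the gene whose count fell in 4SU-treated cells relative to DMSO, so that comparison is given for RPL22L1 as a description without a test.

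Eukaryotic large-subunit protein eL22 can be supplied by either RPL22 or RPL22L1, and the ribosome can be assembled without it. Both proteins bind RNA outside the ribosome. In mouse and in human cancer cells, RPL22 is known to restrain its paralog by binding RPL22L1 transcripts and altering their amount or splicing, and loss of RPL22 is followed by more RPL22L1.

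The cells were HEK293T, a human embryonic kidney line that carries the SV40 large T antigen. Poly(A) RNA was sequenced from 12 libraries in 4 groups of 3. The groups were DMSO vehicle, the clickable electrophilic purine AHL-Pu-1 (CEP, 25 µM for 1 h), 4-thiouridine (4SU, 100 µM for 16 h) and both agents (CEP+4SU). CEP is a cysteine-reactive probe with a purine core, and 4SU is a uridine analog that cells build into new RNA and that crosslinks to protein under ultraviolet light. The comparison of the groups addresses whether the conditions of the chemoproteomic experiment alter the transcriptome. The dose of CEP is that of the design text and the methods, while the treatment protocol in the labels gives 25 mM. That protocol describes crosslinking in the same words for all 12 libraries, and whether cells without 4SU were irradiated is not stated separately. The study calls its replicates biologically independent, but the labels do not say how cultures were separated, so p-values measure the spread between these samples, which may be technical.

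Total counts per library ranged from 16569114 to 24644734. CEP replicate 2 and CEP+4SU replicate 2 stood apart with 22230 and 22627 genes with a count, against at least 24376 in each of the other 10 libraries. Values without CEP replicate 2 are given for the pair and some gene lists. Those without CEP+4SU replicate 2 are given for RPL22L1 and some gene lists. All 4 intermediate filament genes used as HEK293 markers (NEFL, NEFM, INA and VIM) were detected, with a summed FPKM of 128.6 to 136.0. The 5 markers of other cell types summed to 3.54 to 5.261 FPKM, nearly all of it from the fibroblast collagens COL1A1 (553 to 1011 counts) and COL3A1 (68 to 159 counts), which passed the filter. The other 3, PTPRC, CD68 and ALB, had at most 5 counts in any library. At an adjusted p of 0.05 in edgeR's quasi-likelihood test, 0.0564% of the tested genes were called in CEP against DMSO. The share was 0.00564% in 4SU against DMSO, 0.00564% in CEP+4SU against CEP and 0.0451% in CEP+4SU against 4SU. The interaction of CEP with 4SU gave 0 calls (0%), with 467 genes at an unadjusted p under 0.05 and 0 calls by DESeq2.

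RPL22 (ENSG00000116251) lies on the minus strand of chromosome 1 at chr1:6185020-6209389 (GRCh38), and RPL22L1 (ENSG00000163584) on the minus strand of chromosome 3 at chr3:170864875-170870483. The longest coding transcripts of GENCODE 29, RPL22-201 and RPL22L1-201, have 4 exons each and encode 128 and 122 amino acids. Uridine made up 30.4% of RPL22-201 and 29.5% of RPL22L1-201, and GC 42.1% and 42.6%, so the composition of these transcripts was close. The coding part of the last exon is printed here because it aligns without gaps between the paralogs and shows how far their reads can be told apart. RPL22 covers chr1:6186675-6186816 and RPL22L1 chr3:170866383-170866524, both read 5′ to 3′ on the minus strand from the GENCODE 29 transcripts of GRCh38. Capitals mark the 38 of 142 bases of RPL22L1 that differ from RPL22.
RPL22: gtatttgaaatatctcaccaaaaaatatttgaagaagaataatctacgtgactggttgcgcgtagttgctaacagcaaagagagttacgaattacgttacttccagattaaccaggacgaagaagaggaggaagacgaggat
RPL22L1: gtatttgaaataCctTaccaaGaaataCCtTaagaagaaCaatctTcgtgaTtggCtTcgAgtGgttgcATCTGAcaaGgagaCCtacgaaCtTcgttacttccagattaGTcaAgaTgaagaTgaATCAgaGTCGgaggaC

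The paralogs were therefore 73.2% identical over this exon and 65.4% identical over the whole coding alignment, and the longest run of bases that their transcripts shared was 17. Of the 2041 windows of 150 bases (the read length) in RPL22L1-201, 0 occurred in a transcript of another gene. For RPL22-201, 227 of 1929 such windows did (11.8%). Of these, 144 were in RPL22P1, a processed pseudogene on chromosome 3 whose copy of the printed RPL22 stretch has 0 differences from it, and 83 were in AL031847.2, an annotated gene on the same strand that shares 231 exon bases with RPL22. RNF207 shares a further 243 exon bases with RPL22 on the other strand, and whether the counting used strand is not given in the sources used here. The RPL22 count is thus uncertain at these places, while RPL22L1-201 has no exact copy at the read length among annotated transcripts of other genes. Other RPL22L1 transcripts and unannotated copies were not searched.

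RPL22L1 was lower in every library with 4SU than in every library without it, whether or not CEP was present, whereas the 4 groups overlapped for RPL22. Levels are given first as FPKM, the authors' fragment counts scaled for gene length and library size, which allows comparison between genes. RPL22L1 stood at 23.01, 20.72 and 20.34 FPKM in DMSO replicates 1 to 3 and at 19.60, 22.05 and 25.97 FPKM in CEP. In 4SU it stood at 13.31, 10.39 and 13.62 FPKM, and in CEP+4SU at 11.78, 10.98 and 10.95 FPKM. Group means were 21.36 ± 1.449 for DMSO, 22.54 ± 3.211 for CEP, 12.44 ± 1.785 for 4SU and 11.24 ± 0.471 for CEP+4SU (FPKM, SD, n = 3). The order of the means was CEP, DMSO, 4SU and CEP+4SU, in which CEP overlapped DMSO and 4SU overlapped CEP+4SU, while DMSO and 4SU did not overlap. The counts behind these values were 411 to 1286 per library, which gives a counting error of 2.79% to 4.93%.

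RPL22 was the higher of the pair per unit of annotated length in all 12 libraries. Its level was 34.47, 37.20 and 42.47 FPKM in DMSO and 32.81, 22.67 and 43.20 FPKM in CEP. With 4SU alone it was 32.65, 32.85 and 38.51 FPKM, and with both agents 37.74, 39.29 and 36.53 FPKM. CEP replicate 2 was the lowest of the 12 libraries and CEP replicate 3 the highest, so the CEP group spanned the range of all other groups. The means were 38.05 ± 4.066 for DMSO, 32.90 ± 10.26 for CEP, 34.67 ± 3.328 for 4SU and 37.85 ± 1.383 for CEP+4SU (FPKM, SD, n = 3), and no neighbours in this order were separated.

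Fold changes were estimated on counts with edgeR's quasi-likelihood fit of all 12 libraries. Relative to DMSO, RPL22L1 counts in 4SU changed by -0.79 on the log2 scale (SE 0.117, 1.72-fold lower), the value on which the gene was selected. Next by p in that contrast were AMOT at -0.37, YBX3 at -0.39 and AC006538.1 at 1.33 on the log2 scale. Each had an adjusted p of 0.19 in edgeR. DESeq2 gave RPL22L1 no adjusted p in that contrast, because its own filter on mean counts left the gene out. CEP+4SU against DMSO, which shares the DMSO libraries, gave RPL22L1 a log2 fold change of -0.93 (SE 0.117).

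CEP+4SU against CEP uses the 6 libraries that the selection did not use. There RPL22L1 fell by 1.01 on the log2 scale (SE 0.117, 95% interval -1.25 to -0.76), or 2.01-fold. Its adjusted p was 0.000974 in edgeR's quasi-likelihood test, the smallest of 17729 genes, and RPL22L1 was the 1 gene called (0.00564% of those tested). All 3 CEP+4SU libraries lay below all 3 CEP libraries. The next genes by p were UCP2, a mitochondrial uncoupling protein, at -0.50 and LRBA, a vesicle trafficking protein, at -0.50, each with an adjusted p of 0.109 in edgeR and named after their values were seen. In DESeq2, which called 75 genes here, RPL22L1 was again first at an adjusted p of 2.01e-11, with UCP2 and LRBA at 0.000395. The adjusted p of RPL22L1 ranged from 2.75e-15 to 0.0533 over the alternatives, and limma on log2(FPKM + 1) was the 1 alternative past 0.05. Levels in these 6 libraries were known when the pair was chosen, so the test is not independent support for the fall.

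The size of the fall was not the largest of all genes. In 4SU against DMSO, 256 of 17729 tested genes had a log2 fold change at or below that of RPL22L1, but 38 of these averaged 1 CPM or more, CPM being the count relative to the normalized library size. The corresponding numbers for CEP+4SU against CEP were 210 and 23. Counting the genes at or below RPL22L1 in both contrasts, which share no library, there were 19, of which 4 had a mean of at least 1 CPM, RPL22L1 itself included.

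Neither the presence of CEP alone nor its addition to 4SU shifted RPL22L1 past the threshold. In CEP against DMSO the log2 fold change was 0.08 (SE 0.114, 95% interval -0.16 to 0.32, edgeR adjusted p = 0.725), and it was -0.03 without CEP replicate 3, the highest library. In CEP+4SU against 4SU it was -0.14 (95% interval -0.39 to 0.11, edgeR adjusted p = 0.735). The interaction of CEP with 4SU was -0.22 on the log2 scale for RPL22L1 (SE 0.165), a value that contains the selecting contrast and is given without a test.

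RPL22 did not pass the threshold in any of the 5 comparisons. Its log2 fold change was -0.14 in 4SU against DMSO (SE 0.148, 95% interval -0.45 to 0.17, edgeR adjusted p = 0.892) and 0.20 in CEP+4SU against CEP (SE 0.148, 95% interval -0.11 to 0.51, edgeR adjusted p = 0.762). A change of RPL22 up to these bounds cannot be told from none at this spread. In CEP against DMSO RPL22 stood at -0.21 (95% interval -0.52 to 0.10, edgeR adjusted p = 0.456). Without CEP replicate 2 this became 0.01, and CEP+4SU against CEP became -0.01, so the sign of both values rested on that 1 library. CEP+4SU against 4SU gave 0.14 (edgeR adjusted p = 0.79), and the interaction was 0.34 (SE 0.21, 95% interval -0.10 to 0.78, edgeR adjusted p = 1.0). The interaction was 0.12 without CEP replicate 2 and 0.58 without CEP replicate 3.

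The ratio of RPL22L1 to RPL22 compares the paralogs within a library, so library size cancels. On the FPKM scale the log2 ratio was -0.58, -0.84 and -1.06 in DMSO and -0.74, -0.04 and -0.74 in CEP. It was -1.30, -1.66 and -1.50 in 4SU and -1.68, -1.84 and -1.74 in CEP+4SU. RPL22L1 thus reached 0.973 of the RPL22 level in CEP replicate 2, where RPL22 was lowest, and 0.28 to 0.408 of it in the libraries with 4SU. The ratio in all 6 libraries with 4SU was below that in all 6 without.

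Group means of the log2 ratio were -0.83 ± 0.24 in DMSO, -0.51 ± 0.404 in CEP, -1.49 ± 0.183 in 4SU and -1.75 ± 0.0806 in CEP+4SU (SD, n = 3). CEP+4SU was 1.25 below CEP on the log2 scale (difference -1.25, or 0.422 of it, two-sided exact permutation p = 0.1, the smallest that 3 against 3 allows). The same p of 0.1 was given by the exact permutation test of CEP+4SU against 4SU, where the ratio differed by -0.27 and the groups did not overlap. CEP against DMSO differed by 0.32 (exact permutation p = 0.4) with overlap, and by 0.09 without CEP replicate 2. Averaged over 4SU, CEP moved the log2 ratio by 0.03 (two-sided exact permutation p = 0.895 over 400 arrangements), and without CEP replicate 2 by -0.09.

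The absolute ratio depends on the length used for each gene. The deposited lengths, 4682 bases for RPL22 and 2326 for RPL22L1, join all annotated exons, whereas RPL22-201 and RPL22L1-201 have 2078 and 2190 bases. With the latter lengths, an alternative chosen after seeing the data, the mean log2 ratio was -1.92 in DMSO, -1.59 in CEP, -2.57 in 4SU and -2.84 in CEP+4SU. Differences between groups are the same on both scales, so length bears on how far RPL22L1 lies below RPL22 and not on the change.

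No relation between the levels of the paralogs was detected within the libraries with or without 4SU. Over the 6 libraries without 4SU, their log2 CPM values gave Pearson's r = 0.178 (exact permutation p = 0.701) and Spearman's rho = 0.314 (exact permutation p = 0.564). Over the 6 with 4SU, r was 0.0455 (exact permutation p = 0.914) and rho 0.2 (exact permutation p = 0.714). Both adjusted p-values were 0.914 over these 2 relations. Leaving out the 2 libraries farthest from the median gave r = -0.153 and 0.153.

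RPL22P1 was lowest in the same library as RPL22. This pseudogene (ENSG00000213178, 410 bases, chr3:169483671-169484080, minus strand) had 234 to 834 counts per library, which was 12.9% to 21.1% of the RPL22 count. It held 95.7% of all counts on the 22 annotated RPL22 pseudogenes, of which 10 had a count and 12 were at 0, and RPL22P12 and RPL22P24 were the next 2. RPL22L1 has 0 annotated pseudogenes. Relative to the DMSO mean, CEP replicate 2 stood at -0.75 for RPL22, -1.05 for RPL22P1 and 0.05 for RPL22L1 on the log2 CPM scale. Whether the RPL22P1 counts come from RPL22 transcripts was not tested, and in edgeR their adjusted p was 0.958 in 4SU against DMSO and 0.674 in CEP+4SU against CEP. With pseudogene counts added to RPL22, no comparison of RPL22 passed the threshold.

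In CEP+4SU against CEP, RPL22L1 was the 1 member of the ribosomal protein paralog pairs called by edgeR, and the 1 called by DESeq2. The list held 8 pairs, that is 16 genes, of which 15 were tested, since RPL10L had 0 counts in all libraries. With edgeR, 1 of 15 fell and 0 rose, beside 0.00564% over all genes. The 1 that fell was RPL22L1, chosen for its fall with 4SU, so this count does not describe the list. The median log2 fold change of the list was 0.01 against -0.0002 over all genes tested, with 9 of 15 above 0. Without CEP replicate 2 the list median was -0.12, with 3 of 15 above 0 and a highest value of 0.77. Without CEP+4SU replicate 2 it was -0.008, with 7 of 15 above 0. In 4SU against DMSO, the selecting contrast, the list median was -0.13 against -0.01 over all genes, and 4 of 15 lay above 0.

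In the fit of all 12 libraries, the other alternative copies lay between -0.11 and 0.15 in CEP+4SU against CEP. RPL7L1, a paralog with a role in ribosome assembly, stood at -0.06, RPL26L1 at -0.11 and RPL39L, which is abundant in testis, at -0.09 on the log2 scale. RPL36AL stood at -0.03, RPS27L at 0.01, and the sparse RPL3L, known from muscle, at 0.15 (SE 0.488, 12 to 53 counts). Adjusted p-values of these 6 genes in edgeR ran from 0.825 to 0.988. The canonical copies RPL3, RPL7, RPL10, RPL26, RPL39 and RPS27 ranged from -0.18 to 0.27, and RPL36A stood highest at 0.52 (edgeR adjusted p = 0.335).

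**Figure D1:**
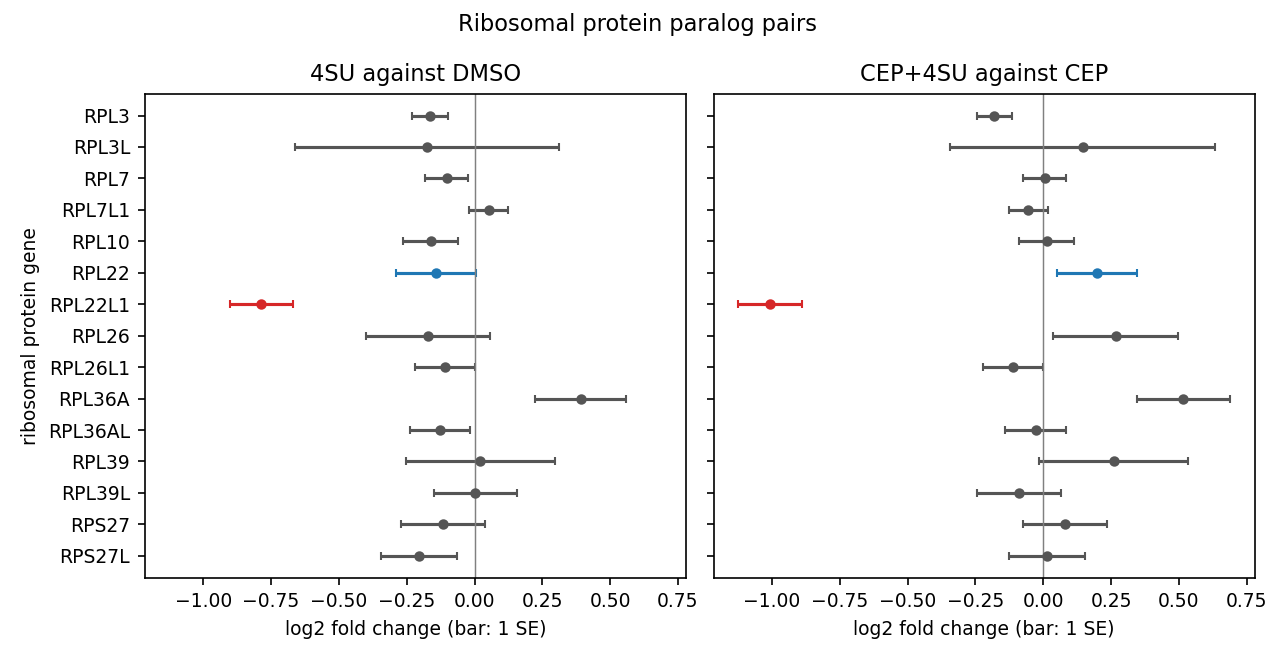
Log2 fold change (point) with 1 SE (bar) of the 15 tested genes of the ribosomal protein paralog pairs, in 4SU against DMSO (left) and CEP+4SU against CEP (right). RPL22L1 lies at -0.79 on the left, where it was selected, and at -1.01 on the right, with RPL36A at 0.39 and 0.52 at the other end.

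Cytoplasmic large-subunit genes, which include RPL22 and not RPL22L1, made 0 calls of 47 with edgeR in CEP against DMSO, 4SU against DMSO and CEP+4SU against CEP. At an unadjusted p under 0.05 there were 6 genes in CEP against DMSO, 6 in 4SU against DMSO and 7 in CEP+4SU against CEP, while over all tested genes the shares were 18.6%, 6.5% and 8.96%. DESeq2 called 0, 0 and 1 of them in these comparisons, the 1 being RPL4. The median log2 fold change was -0.11 in CEP against DMSO, beside -0.0047 over all genes, and -0.14 in 4SU against DMSO, beside -0.0073, where 2 of 47 genes lay above 0. In CEP+4SU against CEP the list spanned -0.29 to 0.52 around a median of -0.04, with 21 of 47 above 0. Without CEP replicate 2 that median was -0.15 with 1 of 47 above 0, the median of CEP against DMSO was 0.01, and RPL22L1 stood at -1.03 in CEP+4SU against CEP.

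Relative to the summed CPM of the 46 other large-subunit genes, RPL22L1 made up 0.115% to 0.157% in the libraries without 4SU and 0.0674% to 0.0838% in those with it. RPL22 made up 0.324% to 0.52% of the same sum, and its ranges with and without 4SU overlapped. The sum itself was lowest in CEP replicate 2 at 33040 CPM and highest in CEP replicate 3 at 42890 CPM. It was 35680 to 39350 CPM in the libraries with 4SU. In those without 4SU, apart from CEP replicate 2, it was at least 40130 CPM, so the reference also differed with 4SU. In bulk RNA, fewer cells that express a gene and less of its RNA per cell cannot be told apart.

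Genes that have been tied to RPL22 or RPL22L1 in other systems gave 0 calls of 7 by edgeR in 4SU against DMSO and in CEP+4SU against CEP, at background shares of 0.00564%, with 0 of 7 at an unadjusted p under 0.05 in both. DESeq2 called 0 of the 3 to which it gave an adjusted p in 4SU against DMSO, and 0 of 7 in CEP+4SU against CEP. SMAD1 and SMAD2, signal transducers whose transcripts are bound by the pair in zebrafish, stood at -0.07 and 0.11 on the log2 scale in CEP+4SU against CEP. LIN28B, an RNA-binding protein that is raised when RPL22 is lost in mouse T cells, was at -0.002 in that comparison. MDM4 and MDM2, a pair of related regulators of protein turnover, were at 0.11 and 0.01. CDKN1A, an inhibitor of cyclin-dependent kinases, was at -0.15, and the adjusted p-values of the genes named here were at least 0.744 in edgeR. In CEP against DMSO the largest value was that of MDM2 at 0.31 (edgeR adjusted p = 0.174).

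No tested neighbour of either paralog passed the threshold in CEP+4SU against CEP. Of 4 protein-coding genes within 200 kb of RPL22L1, 2 were tested. In CEP+4SU against CEP, EIF5A2, a translation factor isoform, stood at -0.17 (edgeR adjusted p = 0.815) and TNIK, a kinase, at -0.02 (edgeR adjusted p = 0.973). Around RPL22, 7 of 9 were tested, of which 2 (ACOT7 and KCNAB2) had an unadjusted p under 0.05 in edgeR, as did 8.96% of all tested genes, and DESeq2 called 0 of 7. Their log2 fold changes ran from -0.29 for ACOT7, an acyl-CoA thioesterase, to 0.49 for KCNAB2, a potassium channel subunit, with ICMT, GPR153, NPHP4, RNF207 and CHD5 in between.

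Patterns most like each paralog were sought by Pearson's r of log2 CPM over the 12 libraries among genes with a mean of at least 1 CPM. The 5 closest to RPL22L1 were PPIA (r = 0.952), MIPEP (0.94), UCP2 (0.93), NID1 (0.924) and YARS (0.914). They encode cyclophilin A, a mitochondrial peptidase, an uncoupling protein, nidogen and tyrosyl-tRNA synthetase. Their own log2 fold changes in CEP+4SU against CEP were smaller than that of RPL22L1, from -0.18 for PPIA to -0.50 for UCP2. Their adjusted p-values there were at least 0.109 in edgeR. DESeq2 called 3 of the 5, namely UCP2 (adjusted p = 0.000395), NID1 (0.002) and MIPEP (0.0157). These genes were chosen for their likeness over the same libraries, so the values are a description.

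For RPL22 the closest genes were H2AFZ (r = 0.97), RPS12 (0.965), ENY2 (0.963), UQCRH (0.959) and RPL39 (0.954). These encode histone H2A.Z, a small-subunit ribosomal protein, a transcription and export factor, a subunit of respiratory complex III and a large-subunit ribosomal protein. Without CEP replicate 2, an alternative chosen after seeing the data, r with RPL22 was 0.851 to 0.917 for these 5 genes, and 3 of them were still among the 5 closest. The same step gave r of 0.923 to 0.952 for the genes closest to RPL22L1, of which 4 were still among the 5 closest. The lists closest to RPL22 and to RPL22L1 had 0 genes in common, and all libraries share 1 normalization, so r is given as a description.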

How the data were processed

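Poly(A) RNA of HEK293T cells was sequenced as paired 150-base reads. Per the authors' methods, reads were quality-filtered before alignment to GRCh38 (HISAT2 2.0.5), and counts per gene came from featureCounts 1.5.0-p3. Deposited counts are whole numbers without normalization, and deposited FPKM values divide them by gene length and library size. Handling of reads that match several places, and strand, are not given in the sources used here.

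Genes were filtered with filterByExpr (minimum count 10, minimum total 15), scaled by TMM and fitted in 1 quasi-likelihood model of 4 groups (R 4.3.3, edgeR 4.0.16), with Benjamini-Hochberg adjustment over all 17729 genes at 0.05. Group means, ratios and exact permutation tests used Python 3.11.15 and scipy 1.17.1. Alternatives were limma 3.58.1 on log2(FPKM + 1) or log2(FPKM + 0.1), DESeq2 1.42.0, other scalings and filters, pseudogene counts added, and libraries left out. Depth set a counting error of at most 4.93% for RPL22L1 and 2.34% for RPL22.

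Members and gene lists were chosen with earlier results of these data known. The text names the pair, the lists of paralog pairs and of genes tied to the pair, the 3 RPL22 pseudogenes with most counts, tested protein-coding neighbours within 200 kb, and the 5 genes most like each paralog. One gene of the list tied to the pair is not reported here, and the counts over that list include it. Sequences came from GENCODE 29 through Biopython 1.88.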

Additional observations from a re-analysis of the deposited data

How the results depend on the processing

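Of 146 alternative values for 10 results, 139 kept their direction and their side of the threshold, 6 turned sign and 1 lost the call. Part of this tally could not come out otherwise. Ratios of counts or with other lengths differ from the FPKM ratio by a constant. The 9 alternatives of the ratio in CEP+4SU against CEP cannot reach an exact permutation p below 0.1. RPL22L1 in CEP+4SU against CEP was -0.94 with limma on log2(FPKM + 1), at an adjusted p of 0.0533. The cause of the lost call was not tested. With limma on log2(FPKM + 0.1) it was -0.99 (adjusted p = 0.0491), and leaving out each library in turn gave -1.11 to -0.90. The values that turned sign had not passed the threshold. They were RPL22 in CEP against DMSO (0.0059) and in CEP+4SU against CEP (-0.0106), both without CEP replicate 2, and RPL22L1 in CEP against DMSO without CEP replicate 3 (-0.0335). The effect of CEP on the log2 ratio, averaged over 4SU, turned to -0.0298 without DMSO replicate 3, -0.0882 without CEP replicate 2 and -0.0157 without 4SU replicate 2.

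Leaving out each library in turn gave RPL22 values of -0.45 to 0.01 in CEP against DMSO, -0.22 to -0.05 in 4SU against DMSO, -0.01 to 0.44 in CEP+4SU against CEP, 0.08 to 0.20 in CEP+4SU against 4SU and 0.12 to 0.58 for the interaction. For RPL22L1 the ranges were -0.03 to 0.18 in CEP against DMSO and -0.27 to -0.09 in CEP+4SU against 4SU. The log2 ratio went from -1.36 to -1.01 in CEP+4SU against CEP and from -0.0882 to 0.0901 for CEP averaged over 4SU. RPL22L1 has 0 annotated pseudogenes, so no value with pseudogene counts could be made for it.

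Whether the replicate numbers pair the samples was not settled. Of 18 same-numbered pairs, 1 had a correlation of deviations over 0.1 (range -0.0469 to 0.141), while 7 of 12 libraries correlated best with their own number. With the replicate block, RPL22L1 in CEP+4SU against CEP was -1.01 (edgeR adjusted p = 0.000162), and RPL22 was -0.23 in CEP against DMSO and 0.23 in CEP+4SU against CEP. Both RPL22 values had an SE of 0.118 with the block and 0.148 without it. The block changed no call of the pair. DESeq2 called more genes than edgeR, with 253 against 10 in CEP against DMSO, 21 against 1 in 4SU against DMSO, 75 against 1 in CEP+4SU against CEP and 16 against 8 in CEP+4SU against 4SU. In CEP+4SU against DMSO, DESeq2 called 1164 genes. These included 7 of 47 large-subunit genes, RPL3 of the paralog pairs and MDM2 of the genes tied to the pair. None of them was called by edgeR. At an unadjusted p under 0.05 were 13 of 47, 2 of 7 and, by rank, 3535 to 3870 of all 17729 genes. The counts were 7 of 47 and 1 of 7 without CEP+4SU replicate 2. They were 19 of 47 (1 edgeR call) and 3 of 7 without CEP replicate 2. Neither fit has a share over all genes, so these do not describe the lists.

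Depth limits RPL22L1 little at 411 to 1286 counts, and 3 libraries a group limit it more, since an exact permutation test of 3 against 3 cannot go below 0.1.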
